A study of Mus musculus with 12 samples.

Results

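The genes described here carry out and control the presentation of peptides by MHC class I, in CD4 T cells from mouse spleen. They were chosen by name: the heavy chains H2-K1, H2-D1 and H2-T23, the light chain B2m, the peptide transporter subunits Tap1 and Tap2, the peptide editors Tapbp and Tapbpl, the trimming enzyme Erap1 and the transactivator Nlrc5. Of these 10 genes, 7 were listed under their own names among 15125 loci, of which 12918 carried a gene symbol. H2-T23, Tapbp and Tapbpl had no line of their own, and a transcript start belonging to each was found at a locus that carries a neighbour's name. All 7 listed genes passed the filter on low values, which asked for a level of 1 FPKM or more in 3 or more of the 12 libraries (FPKM counts sequenced fragments relative to transcript length and library size).

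MHC class I molecules stand on the surface of nearly every nucleated cell and show short peptides from the cell's own proteins to CD8 T cells. Most of those peptides are made by the proteasome, carried into the endoplasmic reticulum by the TAP transporter, trimmed there and fitted to a heavy chain bound to beta-2-microglobulin, with tapasin and its relative TAPBPR choosing among peptides. Naive T cells carry class I at high levels, and interferons raise the whole pathway through IRF1 and NLRC5, which binds class I promoters through a set of factors at the X and Y boxes.

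RNA was measured in 12 libraries, 3 in each of 4 groups, and the series asks how a faulty proteasome affects T cells. Genotypes are given only by the codes KI and KIKO, and the labels do not say which alleles these stand for, what the KIKO cells lack or what both share. Cells of each genotype were either left naive or activated for 16 h with beads that bear antibodies to CD3 and CD28. The labels of the activated KIKO libraries say T cells in the title and CD4 T cells from spleen in the tissue field. Age, sex, strain and any pooling of animals are not given in the sources used here, and nothing says that replicates came from separate animals, so p-values measure only the spread between these samples, which may be technical.

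The libraries listed 9771 to 11102 loci each, with the fewest in the second KIKO naive library. The depth behind an FPKM value is unknown. Of 10 T cell markers 9 were listed, and their summed FPKM was 1486 to 1760 in KI naive, 1087 to 1283 in KIKO naive, 1257 to 1458 in KI activated and 630 to 919 in KIKO activated libraries. T cell markers were thus lower in KIKO libraries, without overlap, in naive and in activated cells, and their part in the results below was not tested. Of 8 myeloid markers 7 were listed, and their sum was 278 in the second KIKO naive library and 224 in the second KIKO activated library, against 0 to 10.8 in the other 10 libraries. Of 13 markers of B cells and antigen-presenting cells 9 were listed, with a sum of 28 to 51.1 FPKM that was mostly Cst3, and the class II genes H2-Aa, H2-Ab1 and H2-Eb1 stayed at or below 4.50 FPKM. Of 8 NK and CD8 T cell markers 7 were listed, at sums of 12.2 to 37.2 FPKM, and 3 of 6 erythroid and platelet markers were listed, at sums of 0 to 1.56 FPKM. In such bulk samples, fewer cells of a type and less RNA per cell cannot be told apart.

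The classical heavy chains were among the most abundant transcripts of these cells. H2-K1 (chr17:34215013-34219263 by its listed events, minus strand, GRCm39), which encodes the K heavy chain, ranked between 39 and 100 by level among the loci of each library. Its level was 1090, 1033 and 1197 FPKM in KI naive, 912, 924 and 963 in KIKO naive, 694, 576 and 610 in KI activated and 697, 622 and 783 in KIKO activated libraries. The order of the means was thus KI naive, KIKO naive, KIKO activated and KI activated, and only the last pair overlapped. H2-D1 (chr17:35481706-35486475, plus strand), the D heavy chain, was at 840, 829 and 920 FPKM in KI naive, 614, 568 and 667 in KIKO naive, 557, 442 and 447 in KI activated and 538, 495 and 567 in KIKO activated libraries. It followed the same order, again with overlap only between the activated groups. Heavy chain genes are near-identical over long stretches, and reads may be split between them, so the level of each is uncertain.

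The non-classical heavy chain H2-T23 encodes Qa-1, a ligand of the NKG2A receptors of NK and CD8 T cells. A transcript start of 247 bp at chr17:36343501-36343747 (minus strand), in a locus that the files name Gm10499, has the length of an H2-T23 first exon in GENCODE M21. It lies 9961 bp from a start of 178 bp that has the first-exon length of its neighbour H2-T22, the same distance as in that annotation. This start was at 92.7, 96.3 and 103 FPKM in KI naive, 82.9, 92.9 and 91.3 in KIKO naive, 68.1, 57.2 and 50.7 in KI activated and 77.7, 71.3 and 94.8 in KIKO activated libraries. KI activated libraries lay below all others.

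B2m (chr2:121978160-121985830, plus strand), the light chain that every class I heavy chain needs to reach the surface, was the most abundant of the 10 genes in KI naive cells. It was at 1323, 1332 and 1667 FPKM in KI naive, 962, 832 and 993 in KIKO naive, 913, 737 and 812 in KI activated and 1009, 973 and 1069 in KIKO activated libraries. KI naive libraries stood above all others, and neighbours among the other 3 groups overlapped. The value rests on 1 listed transcript start.

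Tap1 (chr17:34406527-34412290, plus strand) and Tap2 (chr17:34422501-34435295, plus strand) encode the subunits of the transporter that moves peptides from the cytosol into the endoplasmic reticulum. Tap1 was at 56.9, 55.4 and 66.0 FPKM in KI naive, 64.8, 65.0 and 67.3 in KIKO naive, 37.9, 29.9 and 35.6 in KI activated and 79.7, 101 and 92.3 in KIKO activated libraries. The naive groups overlapped, KI activated libraries lay below them and KIKO activated libraries above them. Tap2 was at 42.8, 43.0 and 50.3 FPKM in KI naive, 38.1, 54.9 and 41.1 in KIKO naive, 23.4, 19.2 and 24.2 in KI activated and 45.6, 36.6 and 42.5 in KIKO activated libraries. Only the KI activated libraries stood apart, below the rest.

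Tapbp encodes tapasin, which bridges TAP and the empty class I molecule. A 393-bp start at chr17:34138306-34138698 (plus strand), in a locus that the files name Rgl2, has the first-exon length of Tapbp and lies 10211 bp from a 502-bp Rgl2 start, as in GENCODE M21. Of the starts in that locus, 3 matched a Tapbp first exon in length and distance, and the other 2 were at or below 0.405 FPKM in every library. The 393-bp start was at 56.8, 54.4 and 67.4 FPKM in KI naive, 46.5, 62.7 and 48.8 in KIKO naive, 73.6, 62.3 and 54.8 in KI activated and 72.6, 71.9 and 77.0 in KIKO activated libraries. Tapbpl encodes TAPBPR, a peptide editor that works apart from TAP. A 327-bp start at chr6:125208497-125208823 (minus strand), in the locus named Cd27, has the length of the Tapbpl first exon and lies 5223 bp from a 254-bp Cd27 start, as in the annotation.

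The Tapbpl start was at 0.785, 1.97 and 13.6 FPKM in KI naive, 1.97, 0.786 and 1.25 in KIKO naive, 11.4, 10.9 and 9.63 in KI activated and 1.30, 2.21 and 0.816 in KIKO activated libraries. All 6 KIKO libraries were at or below 2.21 FPKM, and the KI naive libraries differed widely among themselves. The low values of a start inside another gene's locus are the least certain of those given here.

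Erap1 (chr13:74787687-74817519, plus strand) encodes an aminopeptidase that trims peptides in the endoplasmic reticulum. It was at 9.29, 10.3 and 9.67 FPKM in KI naive, 9.54, 8.32 and 8.60 in KIKO naive, 14, 14.5 and 16.3 in KI activated and 11.7, 12.2 and 11.0 in KIKO activated libraries. Both activated groups lay above both naive groups, with KI above KIKO after activation. Nlrc5 (chr8:95160974-95253900, plus strand), the transactivator of class I genes, was at 11.9, 13.4 and 12.1 FPKM in KI naive, 8.54, 10.1 and 10.0 in KIKO naive, 10.4, 10.4 and 8.85 in KI activated and 18.6, 21.0 and 21.9 in KIKO activated libraries. KIKO activated libraries were the highest, and the KI activated and KIKO naive libraries overlapped.

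**Figure D1:**
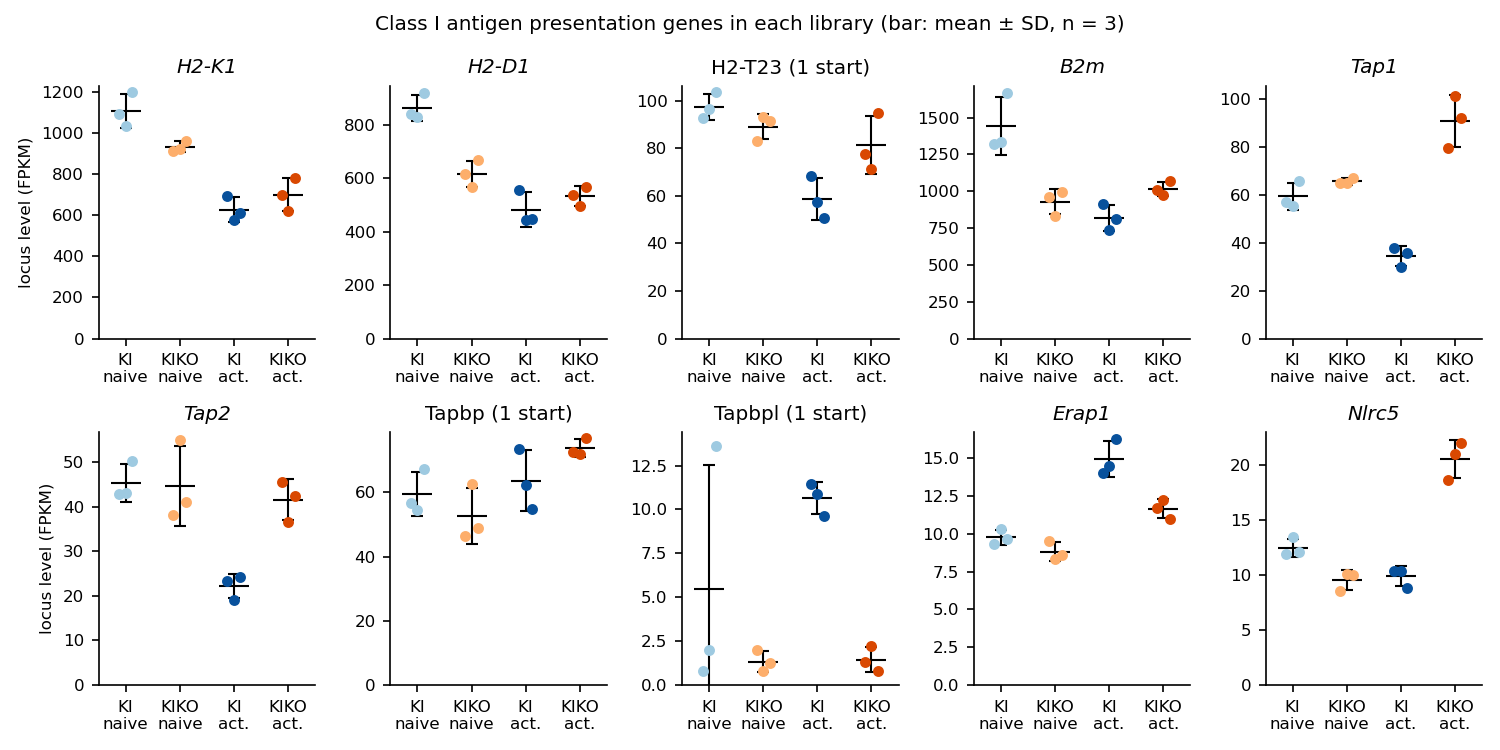
FPKM (vertical axes, from 0) of each gene in the 12 libraries, grouped by genotype and state, with points for libraries and bars for mean ± SD of 3. For Tap1, Tap2 and Nlrc5 the KIKO activated points lie above all KI activated points, while for H2-K1, H2-D1 and B2m the KI naive points are the highest; titles marked "1 start" show a single transcript start found under a neighbour's name.

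RefSeq promoter sequences (GRCm38.p6) were matched by symbol for 7 of the 10 genes, H2-K1, H2-D1, H2-T23, B2m, Tap1, Tapbp and Erap1. The 250 bases before each annotated start were searched on both strands for the letters of 6 motifs of the class I promoter (an interferon response element, an NF-kB site, TTCNNNGAA for STAT factors, AGCAAC for the X1 box, TGACG for the X2 box and CCAAT for the Y box), and the shares given are of 27025 genes. The windows of H2-K1, B2m and Tap1 are shown because these genes, a heavy chain, the light chain and the transporter, took different courses in the KIKO cells. Capitals mark the motif matches, and the window of Tap1 (chr17:34187331-34187555, plus strand) is shown only as far as the start of its neighbour Psmb9. The H2-K1 window is chr17:34000348-34000597 (minus strand) and the B2m window is chr2:122147437-122147686 (plus strand).
H2-K1: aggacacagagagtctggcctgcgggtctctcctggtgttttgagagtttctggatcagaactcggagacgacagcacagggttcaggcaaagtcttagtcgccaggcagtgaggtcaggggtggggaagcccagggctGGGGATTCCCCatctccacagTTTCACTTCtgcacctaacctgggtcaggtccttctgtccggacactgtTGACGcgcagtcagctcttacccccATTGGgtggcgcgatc
B2m: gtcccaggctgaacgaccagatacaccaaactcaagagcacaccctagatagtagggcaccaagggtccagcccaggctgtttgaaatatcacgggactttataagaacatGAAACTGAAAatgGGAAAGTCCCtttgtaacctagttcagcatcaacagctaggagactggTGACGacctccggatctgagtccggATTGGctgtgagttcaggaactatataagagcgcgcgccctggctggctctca
Tap1: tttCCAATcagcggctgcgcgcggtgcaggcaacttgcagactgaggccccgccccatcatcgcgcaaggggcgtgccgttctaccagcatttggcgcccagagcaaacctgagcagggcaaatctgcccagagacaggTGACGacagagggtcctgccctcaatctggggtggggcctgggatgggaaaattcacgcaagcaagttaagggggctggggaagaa

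The B2m window held, in order, the interferon response element at 139 to 130 bases before the start, the NF-kB site at 126 to 117, TGACG at 78 to 74 and CCAAT at 53 to 49. The H2-K1 window held the NF-kB letters at 111 to 101, read on both strands and overlapping, then TGACG at 41 to 37 and CCAAT at 16 to 12. In H2-D1 the same series stood at 171 to 161, 101 to 97 and 76 to 72, with a second CCAAT at 53 to 49. Tap1 held TGACG at 86 to 82 and CCAAT at 222 to 218, and none of the interferon or NF-kB letters. H2-T23 held the interferon response element at 124 to 115 and CCAAT at 52 to 48, Tapbp held CCAAT alone, and the Erap1 window held none of the 6.

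The letters of the interferon response element were found in 2 of the 7 windows, against 3.46% of all genes. The NF-kB letters were found in 3 of 7, against 3.97%, TGACG in 4 of 7, against 19.8%, and CCAAT in 6 of 7, against 37.5%. AGCAAC and TTCNNNGAA were in none of the 7 windows and in 13.9% and 8.13% of all genes. GAANNGAAA, the interferon response element less 1 base and chosen after its letters were seen, lay in H2-K1 at 90 to 82 and in H2-D1 at 150 to 142 and is found in 7.30% of genes. No window held both forms. A match describes letters only.

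**Figure D2:**
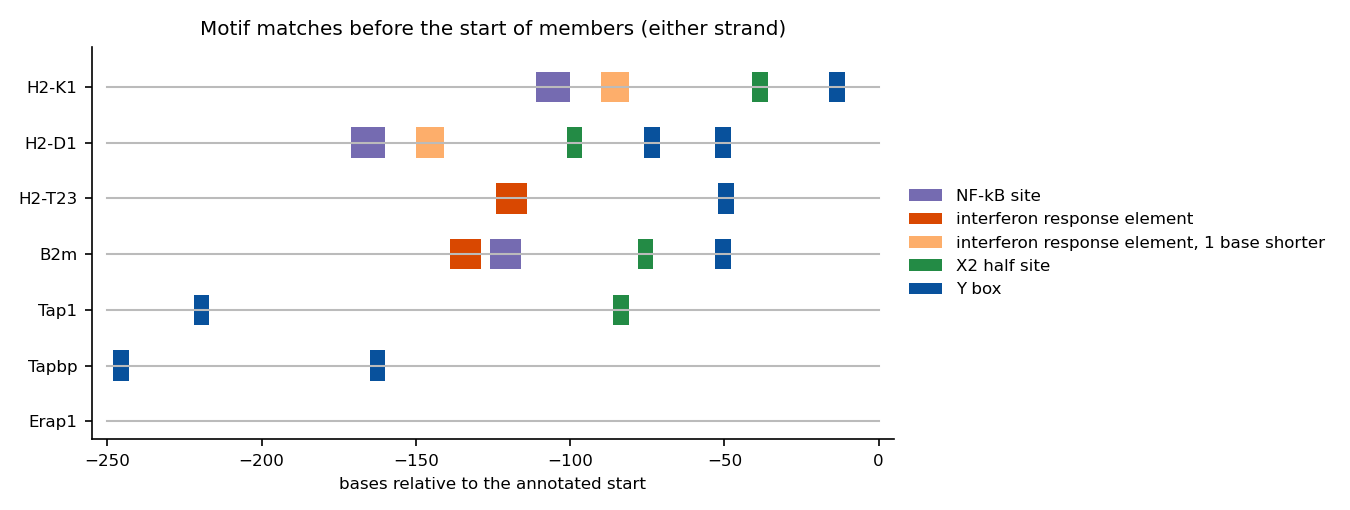
Position of motif matches on either strand in the 250 bases before the annotated start (horizontal axis, bases; start at 0) for 7 genes, first promoter entry of each. H2-K1, H2-D1 and B2m carry NF-kB, X2 and Y letters in the same order, Tap1 carries X2 letters at 86 to 82 and Y letters at 222 to 218, and Erap1 carries none.

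The first question was how KIKO cells differed from KI cells at rest. In naive cells B2m and H2-D1 were lower in KIKO than in KI. B2m averaged 929 ± 85.3 against 1440 ± 196 FPKM (SD, n = 3 each), 0.645 times the KI level, and H2-D1 averaged 616 ± 49.4 against 863 ± 49.7, 0.714 times. On the log2(FPKM + 1) scale B2m differed by -0.63 ± 0.12 (SE, limma with Benjamini-Hochberg adjustment, adjusted p = 0.00845) and H2-D1 by -0.49 ± 0.11 (adjusted p = 0.0183). These 2 of 7 genes tested compare with 3.90% of all 9743 loci that were lower and 10.4% that changed in either direction.

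None of the 7 was higher, where 6.46% of loci were. H2-K1 differed by -0.24 ± 0.11 (limma adjusted p = 0.183) and Nlrc5 by -0.35 ± 0.11 (adjusted p = 0.0534), and neither passed. The KIKO and KI values of each did not overlap, but this is no test, and the share of all loci without overlap was not counted. Tap1, Tap2 and Erap1 differed by 0.15, -0.03 and -0.13 and did not pass. The median over the 7 genes was -0.24, beside 0.05 over all loci tested. Among 13226 transcript starts tested on their own, 4.26% were called, 2.41% higher and 1.84% lower. The starts of H2-T23, Tapbp and Tapbpl did not pass, at -0.13 ± 0.12, -0.18 ± 0.14 and -0.90 ± 0.61.

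The H2-D1 call ended without KI naive replicate 1 (adjusted p = 0.0507), without KI naive replicate 3 (0.0580), without KIKO naive replicate 2 (0.0563), without both KIKO libraries with myeloid markers (0.0533) and under quantile normalization (difference -0.22, adjusted p = 0.339). Over 26 alternatives its adjusted p was 0.00709 to 0.339. The B2m call ended under quantile normalization (difference -0.36, adjusted p = 0.0980) and in a fit of the 2 groups alone (0.0568), within a range of 0.00472 to 0.0980 over 25.

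The second question was how the genotypes differed after stimulation. In activated cells the transporter genes and the transactivator were higher in KIKO cells, while the trimming enzyme was lower. Tap1 averaged 91.1 ± 10.9 FPKM in KIKO and 34.4 ± 4.13 in KI cells, 2.64 times as much, Tap2 41.6 ± 4.60 against 22.3 ± 2.70, 1.87 times, and Nlrc5 20.5 ± 1.73 against 9.88 ± 0.891, 2.08 times (SD, n = 3 each). The log2 differences were 1.38 ± 0.11 for Tap1 (SE, limma adjusted p = 4.11e-06), 0.87 ± 0.14 for Tap2 (0.000529) and 0.98 ± 0.11 for Nlrc5 (2.61e-05). Erap1 averaged 11.6 ± 0.625 against 14.9 ± 1.19 FPKM and differed by -0.33 ± 0.10 (adjusted p = 0.0152). The 3 genes higher and 1 lower, of 7, stand beside 20.7% of loci higher, 19.3% lower and 40.0% changed in all.

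The light chain and the classical heavy chains did not pass. B2m averaged 1017 ± 48.5 FPKM in KIKO and 821 ± 88.1 in KI activated cells, a difference of 0.31 ± 0.12 (limma adjusted p = 0.0597). No KI value reached the lowest KIKO value, and here too the share of all loci without overlap was not counted. H2-K1 differed by 0.16 ± 0.11 and H2-D1 by 0.15 ± 0.11 (adjusted p = 0.278 and 0.303), and both overlapped between the genotypes. The median of the 7 was 0.31, beside 0.04 over all loci. Within a library, the ratio of Tap1 to H2-K1 FPKM was 0.0546, 0.0519 and 0.0583 in KI activated and 0.114, 0.163 and 0.118 in KIKO activated libraries, without overlap.

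Of the starts, that of H2-T23 was higher in KIKO activated cells by 0.46 ± 0.12 (limma adjusted p = 0.0204) and that of Tapbpl lower, at -2.29 ± 0.61 (0.0196), where 24.5% of starts were called, 12.3% higher and 12.2% lower. The Tapbp start differed by 0.22 ± 0.14 and did not pass. The call on H2-T23 ended without KI activated replicate 2 or 3 or KIKO activated replicate 3 (adjusted p = 0.0636, 0.0824 and 0.0688). The call on Tapbpl ended without any of KI activated replicates 1 to 3 (0.0531, 0.0566 and 0.0513) or KIKO activated replicates 1 and 3 (0.0554 and 0.0669), with a difference of -2.10 to -2.36 in these fits. Both calls also ended with no filter on low starts (0.0567 for H2-T23 and 0.0598 for Tapbpl), and that on H2-T23 with median-ratio scaling (0.0576) and in a fit of the 2 groups alone (0.0768). Over 23 alternatives the adjusted p was 0.00473 to 0.0824 for H2-T23 and 0.000611 to 0.0669 for Tapbpl.

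B2m in activated cells passed under quantile normalization (0.60), rescaling to an equal sum (0.45), the stricter filter (0.31), in a fit of the 2 groups alone (0.31) and without KI activated replicate 1 (0.39), and its adjusted p ranged from 0.00305 to 0.213 over 25 alternatives. H2-K1 passed under quantile normalization (0.44) and rescaling (0.29), and H2-D1 under quantile normalization (0.39). The Erap1 call ended under rescaling (difference -0.21, adjusted p = 0.117) and without KI activated replicate 3 (-0.27, adjusted p = 0.0670), within a range of 0.00825 to 0.117.

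**Figure D3:**
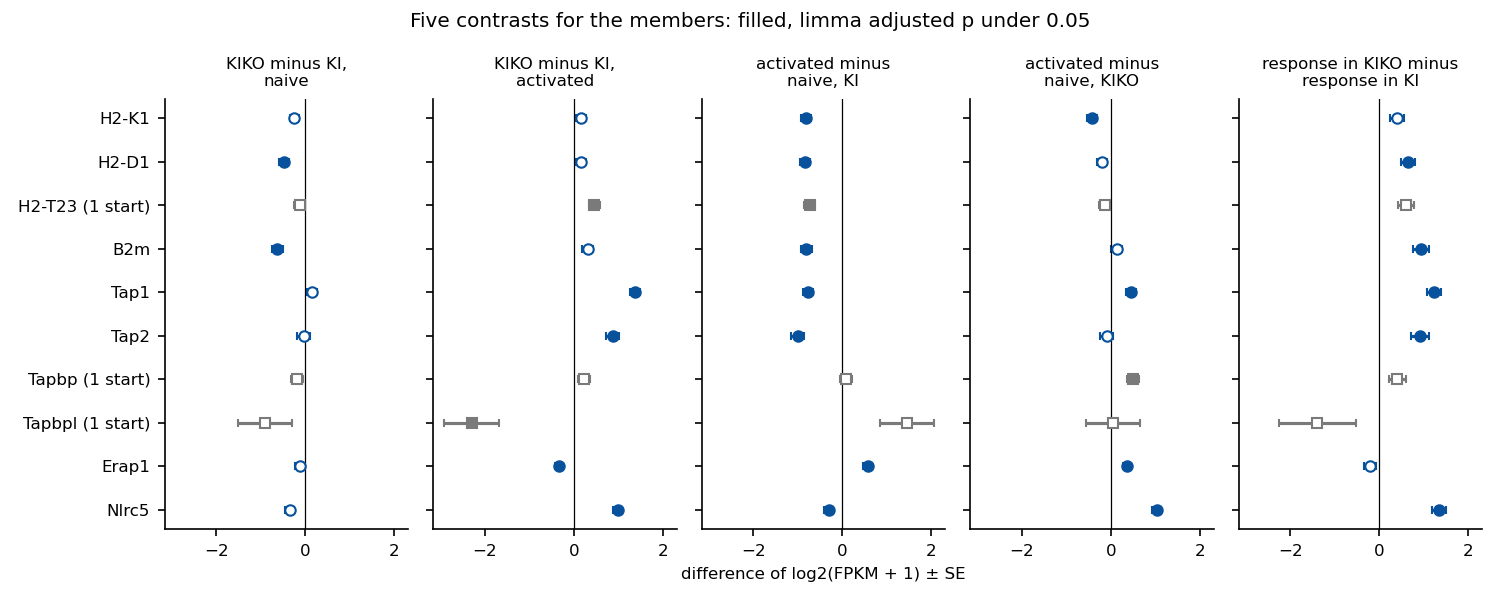
Differences of log2(FPKM + 1) with their SE (horizontal axis) for each gene in the 5 comparisons, circles for loci and squares for single transcript starts, filled where the limma adjusted p was under 0.05. In the response panel Nlrc5 (1.34) and Tap1 (1.23) lie farthest to the right, and H2-K1 (0.40) and Erap1 (-0.20) are open.

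The third question was what stimulation does in KI cells. Activation lowered the FPKM of 6 of the 7 genes in KI cells and raised that of Erap1. FPKM is relative to library size, so here and in the other comparisons changes of RNA per cell were not measured. H2-K1 fell from 1107 ± 83.5 to 627 ± 61.0 FPKM (SD, n = 3 each), H2-D1 to 0.559 and B2m to 0.570 times the naive level, Tap1 to 0.579 and Tap2 to 0.491 times. The log2 differences were -0.82 ± 0.11 for H2-K1, -0.84 ± 0.11 for H2-D1, -0.81 ± 0.12 for B2m, -0.77 ± 0.11 for Tap1 and -1.0 ± 0.14 for Tap2 (SE, limma adjusted p of at most 0.000109). Nlrc5 was lower by -0.31 ± 0.11 (adjusted p = 0.0234), and Erap1 was higher by 0.57 ± 0.10 (0.000252), from 9.75 ± 0.503 to 14.9 ± 1.19 FPKM. Beside the 6 lower and 1 higher, 29.5% of loci were lower and 32.2% higher, 61.7% in all.

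The median of the 7 was -0.81, beside -0.01 over all loci. The H2-T23 start fell with the classical chains, by -0.73 ± 0.12 (limma adjusted p = 0.000696), where 43.9% of starts were called, 23.5% higher and 20.4% lower. The Tapbp start did not pass (0.09 ± 0.14), nor did the Tapbpl start (1.45 ± 0.61, adjusted p = 0.0791), which passed without KI naive replicate 3 (2.34, adjusted p = 0.000378). The Nlrc5 call ended on summed starts (difference -0.34, adjusted p = 0.0829), without KI naive replicate 2 (-0.26, 0.0895) and without KI activated replicate 3 (-0.24, 0.0958), and on the first start alone the difference was 0.06 (adjusted p = 0.883). The lowest adjusted p over its 26 alternatives was 0.00667.

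The same question was put to KIKO cells. There activation raised Nlrc5, Tap1 and Erap1 and lowered H2-K1. Nlrc5 rose from 9.55 ± 0.875 to 20.5 ± 1.73 FPKM and Tap1 from 65.7 ± 1.37 to 91.1 ± 10.9 (SD, n = 3 each), and H2-K1 fell from 933 ± 26.7 to 701 ± 80.6. The differences were 1.03 ± 0.11 for Nlrc5 (SE, limma adjusted p = 1.78e-05), 0.46 ± 0.11 for Tap1 (0.00584), 0.36 ± 0.10 for Erap1 (0.00780) and -0.42 ± 0.11 for H2-K1 (0.00814). The 3 higher and 1 lower stand beside 25.1% of loci higher, 22.2% lower and 47.3% in all.

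B2m, H2-D1 and Tap2 did not pass in KIKO cells, at 0.13 ± 0.12, -0.21 ± 0.11 and -0.09 ± 0.14, and the median of the 7 was 0.13 beside 0.00 over all loci. The Tapbp start rose from 52.6 ± 8.78 to 73.9 ± 2.74 FPKM, by 0.49 ± 0.14 (limma adjusted p = 0.0187), where 30.5% of starts were called, 17.5% higher and 13.0% lower. This call ended without KIKO naive replicate 1 (0.41, 0.0685) or 3 (0.44, 0.0615), with no filter (0.0543), under quantile normalization (0.39, 0.0563) and on rescaling (0.38, 0.0546). Starts of H2-T23 (-0.14 ± 0.12) and Tapbpl (0.06 ± 0.61) did not pass. Without the second KIKO naive and KIKO activated libraries, those with myeloid markers, only Nlrc5 of the 7 passed. The differences were then 0.37 for Tap1 (adjusted p = 0.0523), 0.29 for Erap1 (0.0633) and -0.34 for H2-K1 (0.0587). On summed transcript ends the Tap1 difference was 0.02 (0.962) and that of H2-K1 -0.32 (0.619). The 1 listed Tap1 end averaged only 1.75 FPKM in KIKO naive and 1.78 in KIKO activated libraries, a small part of the Tap1 level. On the first Tap1 start alone the difference was 0.44 (limma adjusted p = 0.00521). The lowest adjusted p over the alternatives was 0.00413 for Tap1, 0.00158 for H2-K1 and 0.00519 for Erap1.

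Whether the genotypes responded differently was tested directly, as the response to activation in KIKO cells minus that in KI cells. Nlrc5, Tap1, B2m, Tap2 and H2-D1 all had a higher response in KIKO cells. For Nlrc5 the difference was 1.34 ± 0.15 (SE, limma adjusted p = 0.000288), for Tap1 1.23 ± 0.16 (0.000633), for B2m 0.94 ± 0.17 (0.00341), for Tap2 0.91 ± 0.20 (0.00902) and for H2-D1 0.64 ± 0.16 (0.0145). Higher responses were called at 5 of 7 genes and lower ones at 0, where 8.99% of loci were higher, 11.6% lower and 20.6% either way.

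H2-K1 (0.40 ± 0.16, limma adjusted p = 0.0892) and Erap1 (-0.20 ± 0.13, 0.323) did not pass. The median over the 7 genes was 0.91, beside -0.01 over all loci. For Nlrc5 and Tap1 the terms had opposite signs, a fall in KI and a rise in KIKO cells. The fall of Nlrc5 and the rise of Tap1 each lost their call under some alternatives. They were 0.06 on the first Nlrc5 start and 0.02 on summed Tap1 ends, which hold a small part of the Tap1 level. The Tap1 rise was 0.44 on its first start (limma adjusted p = 0.00521). For B2m, H2-D1 and Tap2 a fall in KI cells met a difference in KIKO cells that did not pass. Starts of H2-T23 (0.59 ± 0.18, adjusted p = 0.0612), Tapbp (0.40 ± 0.19) and Tapbpl (-1.39 ± 0.86) did not pass, with 9.31% of starts called, 4.07% higher and 5.24% lower. H2-K1 passed without KIKO activated replicate 2 (0.48, 0.0462), and Tap1 did not on summed transcript ends (0.80, 0.0926). On the first Tap1 start alone it passed (1.22, 0.00157). The H2-T23 start passed without KI activated replicate 1 (0.70, 0.0282) and without KIKO activated replicate 2 (0.68, 0.0416), under quantile normalization (0.76, 0.0313) and with the filter at 5 FPKM (0.0472). Without KI naive replicate 3 the Tapbpl start passed (-2.28, 0.0178).

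Ratios within a library compare genes at the same scaling and were not tested. The ratio of H2-K1 to B2m was 0.824, 0.775 and 0.718 in KI naive and 0.948, 1.11 and 0.969 in KIKO naive libraries. The KIKO naive values were all higher. After activation the ratio was 0.761, 0.781 and 0.752 in KI and 0.691, 0.639 and 0.733 in KIKO libraries, also apart, in the other direction. The ratio of H2-K1 to H2-D1 averaged 1.28 ± 0.0313 in naive KI cells and 1.52 ± 0.0964 in naive KIKO cells (SD, n = 3) and 1.30 ± 0.0587 and 1.31 ± 0.0639 in the activated groups. Tap1 to Tap2 averaged 1.31 ± 0.0198 in naive KI cells, 1.51 ± 0.281 in naive KIKO cells, 1.55 ± 0.0730 in activated KI cells and 2.23 ± 0.515 in activated KIKO cells. Its widest spread was in KIKO activated libraries, at 1.75, 2.77 and 2.17, with the highest value in the library with myeloid markers.

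**Figure D4:**
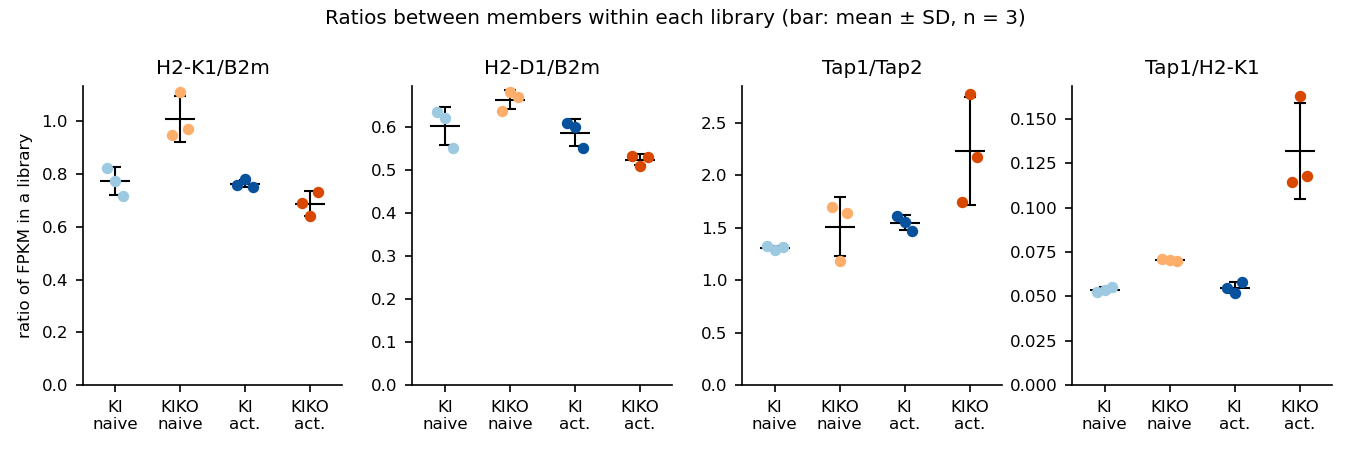
Ratios of FPKM between pairs of genes within each library (vertical axes, from 0), with points for libraries and bars for mean ± SD of 3. Tap1 to H2-K1 is 0.132 ± 0.0271 in KIKO activated libraries and 0.0549 ± 0.00323 in KI activated ones, and H2-K1 to B2m is highest in KIKO naive libraries.

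The choice of transcript start varied little for the heavy chains and Tap1. Their first starts held 98.0% to 99.6% of H2-K1, 99.4% to 99.8% of H2-D1 and 92.1% to 98.9% of Tap1 start FPKM in every library. For Tap2 another start was at 0 or 0.0027 FPKM in naive libraries. After activation it was at 8.69, 0 and 11.0 FPKM in KI and 18.3, 0.0881 and 0 in KIKO libraries. On the main Tap2 start alone the fall in KI cells was -1.54 and the difference between activated groups 1.16 (limma adjusted p = 0.000111 and 0.00191). An exon of H2-D1 is listed in 2 forms that share their end, of 33 bp and 48 bp, and the longer form took 11.2%, 12.3% and 7.50% in KI naive, 6.57%, 8.23% and 6.00% in KIKO naive, 10.0%, 8.93% and 6.25% in KI activated and 6.97%, 5.21% and 6.21% in KIKO activated libraries, overlapping between genotypes in each state. Nlrc5 varied more. Forms without a 90-bp exon (chr8:95208604-95208693) made up 20.1%, 0% and 0% of the FPKM at that exon in KI naive, 42.5%, 0% and 58.8% in KIKO naive, 3.62%, 6.00% and 14.8% in KI activated and 45.6%, 42.4% and 31.7% in KIKO activated libraries. After activation all KIKO libraries were above all KI libraries in this share, while the naive groups overlapped. In FPKM the form with the exon averaged 7.12 in activated KI cells and 11.7 in activated KIKO cells, and the form without it 0.638 and 7.69. These shares were not tested.

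Genes that work with these were taken from lists of the pathway. In the immunoproteasome and its PA28 activator, which make and release the peptides, all 5 genes were tested. Psmb8, a catalytic subunit induced by interferon, was at 25.3, 24.1 and 22.7 FPKM in KI naive, 69.8, 78.7 and 71.7 in KIKO naive, 16.1, 15.2 and 18.2 in KI activated and 63.4, 50.4 and 66.7 in KIKO activated libraries. It was higher in KIKO cells at rest by 1.57 ± 0.11 and after activation by 1.80 ± 0.11 (limma adjusted p = 7.9e-06 and 6.2e-07). Psmb9, the subunit whose gene shares the promoter region of Tap1, was higher in KIKO activated cells by 0.73 ± 0.21 (adjusted p = 0.016), and its response differed by 1.10 ± 0.30 (0.022). Psme1, of the activator, went the other way and was lower in KIKO cells by -0.43 ± 0.11 at rest and -0.39 ± 0.11 after activation (0.034 and 0.017). Psmb10 and Psme2 passed in neither genotype comparison.

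Of 19 other class I and class I-like heavy chains, 8 were listed and 6 tested. After activation Cd1d1, which presents lipids, H2-T10 and Mr1, which presents vitamin metabolites, were higher in KIKO cells by 1.74 ± 0.18, 0.94 ± 0.17 and 0.76 ± 0.19, 3 of 6 and none lower, beside 20.7% and 19.3% of all loci (limma). Cd1d1 was at 3.19, 1.56 and 1.94 FPKM in KI activated and 10.8, 7.44 and 10.7 in KIKO activated libraries. In KI cells 5 of the 6 fell with activation and in KIKO cells 3, where 29.5% and 22.2% of all loci fell. The response was higher in KIKO cells at 4 of 6, Cd1d1, H2-T10, H2-Q10 and Mr1, beside 8.99% of all loci, and the list median was 0.86. At rest H2-Q10 was the only call, lower in KIKO by -0.84 ± 0.19. Its reads may be shared with H2-K1, H2-D1 and other copies.

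Genes that fold class I molecules in the endoplasmic reticulum and let them leave it rose with activation in both genotypes, at 13 of 14 in KI and 12 of 14 in KIKO cells, with none lower, where 32.2% and 25.1% of all loci rose. In this they went against the heavy chains of KI cells. Between the activated groups 6 of 14 were lower in KIKO cells, beside 19.3% of all loci, with the smallest p at Calr, the chaperone calreticulin of the peptide-loading complex, at -0.96 ± 0.08, and only Surf4, a cargo receptor, was higher (0.67 ± 0.11, limma). Calr averaged 527 ± 10.2 FPKM in activated KI cells and 271 ± 19.6 FPKM in activated KIKO cells (SD, n = 3). None of the 14 passed between naive groups, in which the median was -0.07.

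Of 12 other peptidases that trim or destroy peptides, 9 were tested. Thop1, Nln, Rnpep and Prep were lower in KIKO activated cells by -1.43 ± 0.25, -1.02 ± 0.17, -0.46 ± 0.11 and -0.57 ± 0.13 (limma), and Npepps, the puromycin-sensitive aminopeptidase, was higher by 0.37 ± 0.10. These 4 of 9 lower and 1 higher stand beside 19.3% and 20.7% of all loci. Thop1, Nln, Rnpep, Prep and Blmh had a lower response, 5 of 9 and none higher, beside 11.6% and 8.99% of all loci. At rest Blmh, Npepps and Dpp9 were higher in KIKO cells, by 0.99 ± 0.15, 0.53 ± 0.10 and 0.37 ± 0.10. Erap1 stood with Thop1, Nln, Rnpep and Prep in rising with activation in KI cells and in being lower in KIKO cells once activated. Unlike theirs, its response was not called different between the genotypes, and Erap1 also rose with activation in KIKO cells.

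Of 20 factors that act at class I promoters, 17 were tested. After activation 8 were higher and 1 lower in KIKO cells, beside 20.7% and 19.3% of all loci, with a median of 0.21. Irf1 was at 15.9, 13.3 and 22.8 FPKM in KI activated and 55.7, 76.4 and 83.5 in KIKO activated libraries, a difference of 2.00 ± 0.19 (limma adjusted p = 1.1e-05). Stat2 (1.14 ± 0.09) and Prdm1, a repressor (1.5 ± 0.22), were also higher. Creb1, which binds the X2 box, was lower in KIKO cells in both states (-0.43 ± 0.12 and -0.44 ± 0.12). At rest Stat2 was higher (0.33 ± 0.09), and without the KIKO libraries with myeloid markers none of the 17 was called there. The response was higher in KIKO cells at 6 of 17, among them Irf1, Stat2, Prdm1, Nfyb and Irf9, and lower at none, beside 8.99% and 11.6% of all loci.

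Of 36 interferon-induced genes outside class I, 26 were tested, and 16 were higher and 0 lower in KIKO activated cells, where 20.7% and 19.3% of all loci were. Their median was 0.72, beside 0.04 over all loci. The smallest p were those of Iigp1 (3.66 ± 0.26), Irgm1 (2.59 ± 0.19), Gbp2 (2.70 ± 0.22) and Gbp3 (1.98 ± 0.17), GTPases of cell-autonomous defence (limma). At rest 1 of 26 was called, lower in KIKO cells (-1.06 ± 0.27). This was Ifngr1, which the list includes although it encodes a receptor that senses interferon. The response was higher in KIKO cells at 13 and lower at 0, beside 8.99% and 11.6% of all loci. In KI cells activation lowered 16 and raised 4 of the 26, beside 29.5% and 32.2% of all loci. In KIKO cells it lowered 9 and raised 7, beside 22.2% and 25.1%, so that the share raised there was near that of all loci. Without the KIKO libraries with myeloid markers, 15 were higher in KIKO activated cells and 15 had a higher response.

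Beside these lists, T cell markers were called lower in KIKO cells at 3 of 8 at rest and 6 of 8 after activation, beside 3.90% and 19.3% of all loci, with medians of -0.41 and -0.91. Without the second KIKO naive and activated libraries these counts were 0 and 5. Cd4 was at 182, 171 and 182 FPKM in KI activated and 96.2, 86.4 and 138 in KIKO activated libraries. Tap1, Tap2 and Nlrc5 were thus higher in libraries whose T cell markers were lower. Of the markers of other cells, H2-Eb1 (1.29 ± 0.37), Fcgr3 (0.87 ± 0.25) and Klrd1 (0.88 ± 0.22) were called higher in KIKO activated cells. In the second KIKO activated library, with myeloid markers, Tap1 and Erap1 were the highest of the group, Nlrc5 in the middle and Tap2, B2m, H2-K1 and H2-D1 the lowest. Without these libraries the calls between activated groups were again 3 higher and 1 lower among the 7 genes, and 5 higher responses.

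**Figure D5:**
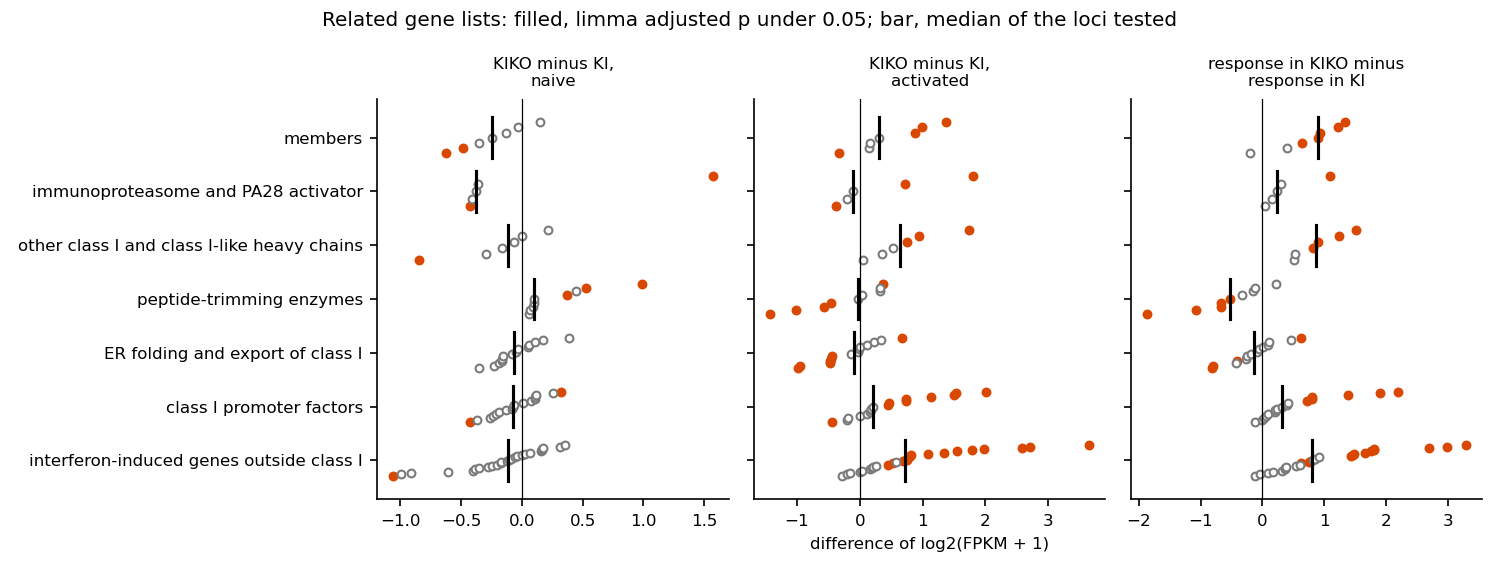
Differences of log2(FPKM + 1) (horizontal axes) for the tested genes of 7 lists between genotypes at rest, after activation, and for the response to activation, filled where the limma adjusted p was under 0.05, with a bar at each list's median. After activation the interferon-induced genes outside class I hold 16 filled points to the right of 0 and none to the left. At rest that list holds 1, on the left, the receptor gene Ifngr1.

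The loci whose pattern over the 12 libraries was most like a given gene, by Pearson r of log2(FPKM + 1), were named without a test, since the libraries form 4 groups. The genes described here, loci without a gene symbol, predicted genes and pseudogenes were left out of this ranking. For H2-K1 these were Fam102a (r = 0.992), Mfsd6 (0.990) and Osbpl5 (0.987). For B2m they were Cd9 (0.947), Trbv19 (0.942) and Epb41 (0.939), and for Tap1 Ly6a (0.981), Rtn4 (0.978) and Nub1 (0.970). Nlrc5 was most like Bcl2l11 (0.971), Flywch1 (0.947) and Apaf1 (0.946). Thus the heavy chain, the light chain, the transporter and the transactivator each had other nearest loci. Ly6a averaged 5.57 FPKM in activated KI cells and 48.6 in activated KIKO cells, and Bcl2l11 13.7 and 30.2.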

How the data were processed

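The 12 libraries, 3 a group, hold RNA of CD4 T cells from mouse spleen. Input was 15 ng total RNA, enriched for poly(A) and prepared with a stranded TaKaRa SMART-seq chemistry, as the labels' protocols describe. Reads passed through FastQC 0.11.9, cutadapt 2.9 and HISAT2 2.2.0, per the submitters' processing notes, which name the builds GRCm39 and mm10. Coordinates in the files are GRCm39. The values are FPKM of transcript events (starts, ends, exons, introns) as deposited by the authors, made by a program not given in the sources used here. Events at 0 are not listed, so an absent event was taken as 0, and a gene missing from the files need not be silent.

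Duplicate events were dropped. The level of a locus was the largest of its summed starts, its summed ends and its largest event. For the 9743 loci that reached 1 FPKM in 3 or more libraries, limma 3.58.1 in R 4.3.3 fitted 4 group means to log2(FPKM + 1), which understates changes of low genes, with a trend on mean level and 4 prior degrees of freedom. Its two-sided p-values were adjusted after Benjamini and Hochberg, separately for each of 5 comparisons, and calls were made under 0.05. The fit was tried on simulated data with independent noise at each locus and few changed loci. That setting is simpler than these data and does not show how the fit performs on them. The comparisons share libraries. For genes listed under a neighbour's name, exon lengths and distances were compared with GENCODE M21 (GRCm38), without converting coordinates, and 13226 starts were fitted likewise, steps chosen after seeing the data. The genes and lists were chosen with earlier results of these data known. All 10 genes are named, with up to 4 loci of each list with the smallest p, those called against their list, and the 3 loci most like H2-K1, B2m, Tap1 and Nlrc5, and a few others chosen after their values were seen (H2-Aa, H2-Ab1, Cst3, Psmb10, Nfyb, Irf9). Replicate numbers were not taken as pairs. Alternatives changed the pseudocount, filter, scaling, level, trend, groups fitted, replicate block and libraries.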

Additional observations from a re-analysis of the deposited data

Results flagged for a closer look

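Of the 7 genes tested at their own loci, 5 responded to activation differently in the 2 genotypes by the interaction term of the limma fit. The response in KIKO cells minus that in KI cells was 1.34 for Nlrc5, 1.23 for Tap1, 0.94 for B2m, 0.91 for Tap2 and 0.64 for H2-D1 on the log2(FPKM + 1) scale, with adjusted p of 0.000288, 0.000633, 0.00341, 0.00902 and 0.0145. In mean FPKM, KI cells went from 12.5 to 9.88 for Nlrc5 and from 59.4 to 34.4 for Tap1, and KIKO cells from 9.55 to 20.5 and from 65.7 to 91.1. B2m went from 1440 to 821 in KI and from 929 to 1017 in KIKO cells. H2-D1 went from 863 to 482 in KI and from 616 to 534 in KIKO cells. For B2m and H2-D1 the genotypes were called different in naive cells and not in activated cells. Both naive calls ended under some alternatives. The Nlrc5 fall in KI cells and the Tap1 rise in KIKO cells each lost their call under some alternatives. Groups of 3 libraries are too small for the check on samples that stand apart within a group.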

How the results depend on the processing

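Over the alternatives, 851 of 893 values of the 7 genes kept their direction and side of the threshold. For the starts of H2-T23, Tapbp and Tapbpl, 311 of 342 values did. Where values did not, the cause was not tested. Part of this was fixed beforehand. Leaving out a library of a group not compared, dropping the trend, adding the replicate block or fitting only the groups compared leaves the difference unchanged. Only its p-value can then move, so these totals overstate how far the results were put to the test.

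On summed transcript ends alone, which exist for fewer loci and for 5 of the 7 genes, the loci called were 553 (naive genotypes), 2309 (activated genotypes), 3583 (KI activation), 2746 (KIKO activation) and 1114 (difference of responses), against 1009, 3898, 6013, 4609 and 2010. The genes called were then 1 for naive genotypes, 1 for KIKO activation and 3 for the difference of responses, against 2, 4 and 5. Between naive groups 1 gene was called under quantile normalization, 1 in a fit of those groups alone and 1 without the KIKO libraries with myeloid markers. Between activated groups quantile normalization called 7, against 4. Without the KIKO libraries with myeloid markers KIKO activation called 1. In a fit of the naive groups alone 686 loci were called, against 1009.

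Leaving out 1 library at a time gave 498 to 1169 loci and 1 to 2 genes between naive groups, 3059 to 4255 and 3 to 5 between activated groups, 5372 to 6304 and 6 to 7 for KI activation, 3599 to 4663 and 4 to 4 for KIKO activation, and 1361 to 2103 and 5 to 6 for the difference of responses. The naive count was 498, 562 and 534 without KI naive replicates 1, 2 and 3 in turn.

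Signs turned only for values that did not pass, apart from Nlrc5 in KI activation, at 0.056 on its first start. Tap2 between naive groups was 0.061 when rescaled to an equal sum and -0.19 to 0.069 with 1 library left out. Tap2 in KIKO activation was -0.19 to 0.063 with 1 library left out and 0.15 without the KIKO libraries with myeloid markers. The Tapbp start in KI activation was -0.22 under quantile normalization, -0.057 when rescaled and -0.020 to 0.19 with 1 library left out. The Tapbpl start in KIKO activation was -0.066 under quantile normalization, -0.015 when rescaled, -0.34 without the KIKO libraries with myeloid markers and -0.16 to 0.25 with 1 library left out.

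Scaling moved the share of calls that were higher. Between naive groups it was 62.3% as reported, 44.2% with median ratios, 49.4% with quantiles and 81.0% when rescaled, and between activated groups 51.8% as reported, 45.4% with median ratios, 49.1% with quantiles and 64.9% when rescaled. Rescaling put the median of all loci at 0.13, 0.15, -0.13 and -0.09 in the naive, activated, KI and KIKO comparisons, against 0.05, 0.04, -0.01 and 0.00. Nlrc5 between naive groups passed with median ratios (-0.42), quantiles (-0.45) and the filter at 5 FPKM (-0.35). On its first start alone the difference was -0.09 (limma adjusted p = 0.894).

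Over all groups, same-numbered libraries had r from -0.036 to 0.121 in 18 pairs, 2 of them over 0.1. Between naive and activated KI libraries r was 0.0555, 0.0792 and 0.102 for same numbers, against -0.0724 to 0.00234 for different ones. In KIKO cells it was -0.00438, 0.0939 and 0.0350, against -0.0732 to 0.0662. The 0.0939 belongs to the second libraries, both with myeloid markers. Whether same-numbered libraries share a source is not given and was not tested, and numbers were not taken as pairs. A replicate block tied each number across all 4 groups. With it, 2, 5, 7, 4 and 5 genes and 875, 3825, 5939, 4511 and 1849 loci were called in the 5 comparisons. The gene gained was B2m between activated groups. With 3 libraries a group and an unknown depth, differences of low genes such as the Tapbpl start are the least precise.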
